A study of Mus musculus with 44 samples.

Results

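The set examined here holds 40 genes of the cell cycle, chosen by name with earlier results of these data known. The question is whether satellite glia, the cells that wrap sensory neurons in the dorsal root ganglion, proliferate after nerve injury. All 40 have a row in the expression tables of naive tissue and of satellite glia after surgery, which list 45882 genes each. The neuron table lists 12170 genes and holds 24 of the 40. By role, the genes are 6 G1 cyclins and kinases, 3 inhibitors, 6 licensing factors, 4 genes of replication and nucleotide supply, and 21 genes of the S, G2 and M phases, called the mitosis genes below.

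All mice were C57BL/6. The naive mice were 9 weeks old and gave 4 libraries of sorted satellite glia and 4 of whole, dissociated and fixed ganglia, from lumbar levels L3 and L4. Mice of 9 to 11 weeks had a full ligation of the sciatic nerve or a sham operation, and sorted satellite glia were taken at 3 or 14 days, with 4 libraries per operation and day. Neurons came from L3 to L5 ganglia through magnetic bead separation, without fixation, 8 days after a partial ligation or a sham operation. They gave 3 libraries per sex and operation, and 4 libraries each of the ligated and the opposite side of ligated mice. The satellite glia were fixed, stained with antibodies and the DNA dye Hoechst and sorted by flow cytometry, and no label says whether the gate used DNA content. No label says which libraries share an animal or pool animals, so p-values measure only the spread between libraries, which may be technical. In these bulk libraries, fewer dividing cells and less RNA per dividing cell cannot be told apart.

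A cell enters the cycle when cyclin D with CDK4 or CDK6, and then cyclin E with CDK2, move it through G1, against the brake of inhibitors such as p21 and p27. MCM helicases are loaded on DNA before S phase, and cyclin B with CDK1 drives entry into mitosis. The mitosis genes are transcribed mainly in dividing cells and are low in resting cells, whereas G1 genes and PCNA are also expressed outside division. Satellite glia of adult ganglia are mostly resting, and whether they divide after nerve injury is a long-standing question.

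The sorted libraries carried the markers of satellite glia. Over the 16 surgery libraries, the summed level of 10 such markers lay between 14140 and 22170 FPKM (fragments mapped to a gene, scaled by its length and by the library's total), led by Fabp7 and Apoe. Between 11452 and 12775 genes reached 1 FPKM in a library. The files give no read counts for single libraries, so their depth is unknown. The correlation of a library with the others of its group averaged between 0.782 and 0.860.

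Levels split by role. In satellite glia after surgery, Cdk4 averaged 26.6 to 49.1 FPKM over the 4 groups, Pcna 23.8 to 25.2, Cdkn1b 22.9 to 29.8, Cdkn1a 16.1 to 38.5 and Ccnd1 13.4 to 21.4. Among the mitosis genes, Mki67, the classic marker of cycling cells, averaged 0.456 ± 0.278 FPKM in sham glia at 3 days and 0.418 ± 0.241 in sham glia at 14 days (SD, n = 4). Plk1, a mitotic kinase, was listed at 0 in 12 of the 16 libraries, the checkpoint kinase Bub1 in 8, Ccnf in 9 and Ccna2 in 7.

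The share of member values listed at 0 was 32 of 160 (20%) in sham glia at 3 days, 28 of 160 (17.5%) in ligated glia at 3 days, 23 of 160 (14.4%) in sham glia at 14 days and 19 of 160 (11.9%) in ligated glia at 14 days. In naive tissue it was 40 of 160 (25%) in satellite glia and 11 of 160 (6.88%) in whole ganglia. Cdc20, an activator of the anaphase ubiquitin ligase, was listed at 0 in 16 of 16 surgery libraries. Mcm7 was listed at 0 in 14, with 9.63 FPKM in sham library 2 at 3 days and 16.8 in ligated library 3 at 14 days. The authors' deposited tables give both genes a mean normalised count above 0 (for Mcm7 238 at 3 days and 218 at 14 days, for Cdc20 19.1 and 53.3), so a value of 0 in FPKM is not an absence of reads.

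**Figure D1:**
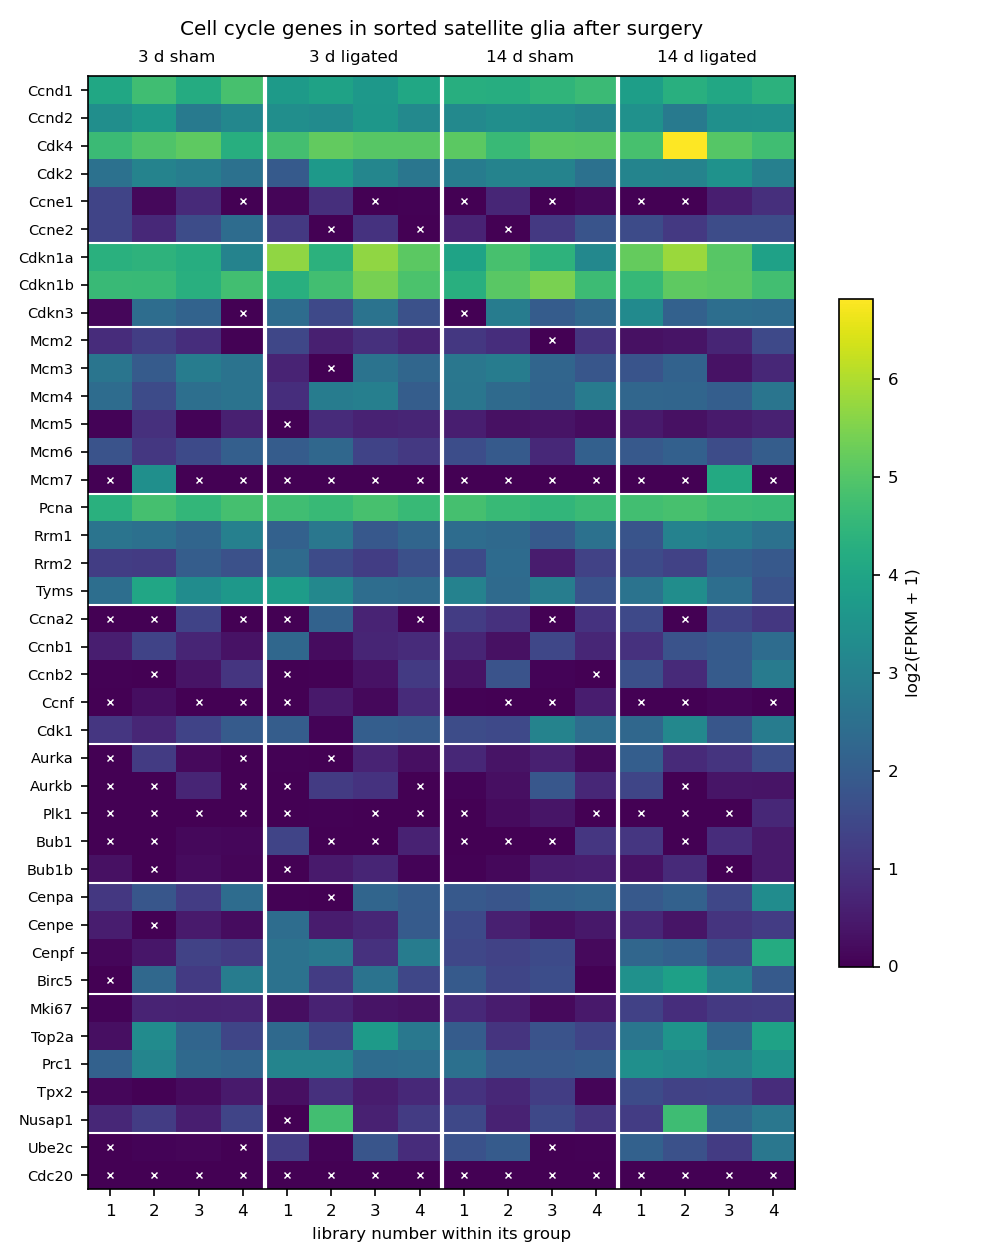
Level of each of the 40 cell cycle genes (rows, by role, white lines between roles) in the 16 satellite glia libraries (columns), as log2(FPKM + 1) on the colour scale. Crosses mark values listed at 0. Cdk4, Pcna, Cdkn1a and Cdkn1b are bright in every group, and the mitosis genes in the lower rows are dark, least so in ligated glia at 14 days.

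Ligation against sham was tested with limma on log2(FPKM + 1), and 31 of the 40 members reached 1 FPKM in at least 4 libraries and entered the test. The filter counted libraries of any group. Aurka passed it only through 3-day sham library 2 and 14-day ligated libraries 1, 3 and 4, so mostly through the group where it was high. Ccnb1, Ccnb2, Tpx2, Aurkb and Cenpe would also have fallen short of 4 libraries without the 14-day ligated group. Aurkb and Cenpe would have done so without the 3-day ligated group as well. The counts and medians of members below include all of these, so they carry that selection. No member was called at an adjusted p under 0.05 at either day. At 3 days, 9 genes were called among 13924 tested (0.0431% higher and 0.0215% lower), and 5 members and 1269 of all genes had an unadjusted p under 0.05. At 14 days 1 gene was called (0.00718% higher and 0% lower), and 8 members and 718 of all genes had an unadjusted p under 0.05. The median difference of the 31 members was 0.24 at 3 days, with 23 above 0, and 0.30 at 14 days, with 25 above 0, where the median of all genes tested was -0.01 and -0.02. In the authors' deposited tables of read counts, 0 members were called at 3 days, where 0.498% of the genes with an adjusted p were called higher and 0.515% lower. Their deposited table for 14 days calls 2 members higher, Top2a and Prc1, where 0.641% of genes were called higher and 0.412% lower.

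Of the 6 G1 cyclins and kinases, 5 were tested and 0 were called at either day. Ccnd1, the D cyclin of early G1, stood at 15.6, 25.3, 17.2 and 27.4 FPKM in sham glia at 3 days and at 12.1, 14.2, 11.6 and 15.7 in ligated glia. Ligated libraries were mostly lower, with ligated library 4 just above the lowest sham library (log2 difference -0.61 ± 0.20 (SE); limma adjusted p = 0.352). At 14 days the difference of Ccnd1 was -0.26 ± 0.20 (limma adjusted p = 1).

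Ccnd2 differed by 0.14 at 3 days and 0.02 at 14 days, and Cdk2, the partner of cyclins E and A, by 0.09 and 0.27. Cdk4 lay between 18.3 and 35.6 FPKM in 15 of the libraries and at 112 in ligated library 2 at 14 days. Ccne2, an E cyclin of the entry to S phase, differed by -1.01 ± 0.41 at 3 days and 0.57 ± 0.41 at 14 days, and its partner gene Ccne1 was listed at 0 in 6 libraries and did not enter the test.

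Among the inhibitors, Cdkn1a, which encodes the CDK inhibitor and p53 target p21, differed most of the 3. At 3 days it stood at 18.9, 20.4, 17.9 and 7.24 FPKM in sham glia and at 50.3, 19.9, 50.6 and 33.3 in ligated glia. Ligated library 2 fell within the sham range and the other 3 lay above it (log2 difference 1.21 ± 0.45; limma adjusted p = 0.428). At 14 days it stood at 14.4, 27.6, 20.4 and 8.12 in sham glia and at 36.2, 54.7, 32.1 and 14.1 in ligated glia, with ligated library 4 within the sham range (0.90 ± 0.45; limma adjusted p = 0.985). The authors' deposited tables give Cdkn1a a log2 fold change of 1.30 ± 0.40 (adjusted p = 0.0719) at 3 days and 0.95 ± 0.40 (adjusted p = 0.335) at 14 days. Cdkn1b, which encodes p27 and holds cells in rest, differed by 0.27 ± 0.26 at 3 days and averaged 29.8 FPKM in sham and 28.8 in ligated glia at 14 days. Cdkn3, a phosphatase that acts on CDKs, differed by 0.87 ± 0.64 and 0.77 ± 0.64.

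The licensing and replication genes showed no difference past the test at either day. Pcna, the sliding clamp of replication, lay between 19.2 and 27.7 FPKM in all 16 libraries and differed by 0.07 ± 0.14 at each day. Of the helicase subunits, Mcm5 and Mcm7 did not reach the FPKM filter, Mcm7 being listed at 0 in 14 of 16 libraries, Mcm2 differed by 0.16 and -0.04, and Mcm4 and Mcm6 differed by -0.09 and 0.07 at 3 days and by -0.22 and 0.30 at 14 days. Mcm3 stood lower after ligation at both days, by 1.14 ± 0.54 and 1.15 ± 0.54 on the log2 scale (limma adjusted p = 0.556 and 0.967), whereas the authors' deposited tables give it -0.45 ± 1.04 and 0.06 ± 0.56. Rrm1 and Rrm2, the subunits of ribonucleotide reductase, differed by -0.35 and 0.18 at 3 days and by 0.25 and 0.28 at 14 days. Tyms, which makes thymidylate, differed by -0.43 and 0.03.

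The mitosis genes held the largest differences at 14 days. Of the 39 members above 0 in a library, 5 had every ligated library above every sham library at 14 days, Prc1, Top2a, Mki67, Cenpf and Aurka, where 1.09% of 26895 genes did so, and 0 had the reverse order, as 1.43% of genes did. At 3 days 0 members were separated in either direction (1.12% and 1.21% of genes).

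Prc1, which bundles the microtubules of the spindle midzone, stood at 4.77, 2.80, 2.72 and 2.96 FPKM in sham glia at 14 days and at 9.53, 8.64, 7.33 and 10.4 in ligated glia. The groups did not overlap, and the log2 difference was 1.22 ± 0.25 (limma unadjusted p = 0.000238, adjusted p = 0.276). At 3 days it stood at 3.38, 7.60, 4.05 and 3.58 in sham glia and at 7.51, 7.43, 4.33 and 4.51 in ligated glia, with sham library 2 the highest of the 8. The authors' deposited table gives Prc1 a log2 fold change of 1.43 ± 0.23 at 14 days (adjusted p = 6.33e-07). Of the 8225 exonic bases of Prc1 in GENCODE M21, 911 are shared with Rccd1 on the opposite strand, whose reads cannot be told apart there without strand. Rccd1 itself stood at 0.034 to 3.51 FPKM in sham glia and 0.131 to 1.34 in ligated glia at 14 days. At 3 days it stood at 0.107 to 7.08 in sham glia and 0.147 to 0.485 in ligated glia. Its highest value, 7.08, was in sham library 2, where Prc1 was highest as well. The part of Rccd1 reads in that Prc1 value was not tested. Of the members, 15 share exonic bases with another gene. Larger opposite-strand shares than that of Prc1 (11.1%) stood in Ccnd1 (23.4%), Ube2c (22.8%), Cdk4 (19.7%), Ccne2 (17.4%) and Ccna2 (12.5%).

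Top2a, the topoisomerase that untangles chromosomes, stood at 2.92, 1.03, 2.33 and 1.61 FPKM in sham glia at 14 days and at 5.39, 10.6, 3.73 and 14.3 in ligated glia. The groups did not overlap (log2 difference 1.57 ± 0.59; limma adjusted p = 0.884). At 14 days the authors' deposited table lists Top2a at 1.92 ± 0.36 in log2 (adjusted p = 9.05e-05). At 3 days the libraries overlapped, at 0.219, 8.72, 3.65 and 1.66 in sham glia and 4.01, 1.71, 12.2 and 5.66 in ligated glia.

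Mki67 stood at 0.716, 0.442, 0.129 and 0.384 FPKM in sham glia at 14 days and at 1.48, 0.868, 1.18 and 1.28 in ligated glia. The groups did not overlap, but Mki67 did not reach the FPKM filter. With no filter, the log2 difference was 0.64 ± 0.20 (limma adjusted p = 1), and the authors' deposited table gives 1.47 ± 0.46 (adjusted p = 0.0859). At 3 days Mki67 stood at 0.0393, 0.606, 0.575 and 0.601 in sham glia and at 0.194, 0.585, 0.293 and 0.23 in ligated glia, with ligated libraries inside the sham range.

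Cenpf, a kinetochore protein of G2 and mitosis, stood at 1.72, 1.53, 1.88 and 0.125 FPKM in sham glia at 14 days and at 3.77, 3.25, 1.96 and 17.4 in ligated glia. Ligated library 4 was far above the rest (log2 difference 1.41 ± 0.56; limma adjusted p = 0.884). At 3 days it stood at 0.0828, 0.336, 1.54 and 1.28 in sham glia and at 4.90, 5.65, 0.947 and 6.24 in ligated glia, where 3 of the 4 ligated libraries were above the sham range (1.51 ± 0.56; limma adjusted p = 0.428). The authors' deposited tables give Cenpf 2.07 ± 0.64 at 3 days (adjusted p = 0.0748) and 1.71 ± 0.57 at 14 days (adjusted p = 0.127).

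Aurka, a kinase of spindle poles, stood at 0.113 to 0.705 FPKM in sham glia and at 3.08, 0.757, 1.02 and 2.08 in ligated glia at 14 days (0.90 ± 0.33; limma adjusted p = 0.88). Birc5, or survivin, a subunit of the chromosomal passenger complex, stood at 2.84, 1.69, 2.06 and 0.0251 in sham glia and at 9.86, 13.6, 6.38 and 2.83 in ligated glia at 14 days. Its groups overlapped by a single pair of libraries (1.78 ± 0.62; limma adjusted p = 0.856).

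The mitotic cyclins were higher in mean after ligation at 14 days, but their groups overlapped. The log2 difference was 0.97 ± 0.43 for Ccnb1 and 1.27 ± 0.47 for Ccnb2 (limma adjusted p = 0.965 and 0.878), against 0.27 and 0.02 at 3 days. For Ccnb1, sham library 3 (1.72 FPKM) lay above ligated library 1 (0.962) at 14 days. For Ccnb2, sham library 2 (2.35) lay above ligated libraries 1 and 2 (2.175 and 0.762). Their kinase Cdk1 differed by 0.24 ± 0.49 and 0.40 ± 0.49, and Ccna2, the cyclin of S phase and G2, by 0.36 and 0.20. Ccnf, Plk1, Bub1 and Bub1b did not reach the FPKM filter. The authors' deposited tables give Bub1 5.17 ± 1.76 at 3 days (adjusted p = 0.132) and 2.21 ± 1.51 at 14 days (adjusted p = 0.737).

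The remaining members of this group were uneven. Aurkb, the kinase of the chromosomal passenger complex, differed by 0.37 and -0.20, the centromere histone Cenpa by -0.58 and 0.18, and the kinetochore motor Cenpe by 1.09 ± 0.41 and 0.14 ± 0.41. Tpx2, which activates Aurka on the spindle, differed by 0.42 ± 0.27 and 0.51 ± 0.27, and Ube2c, the ubiquitin-conjugating enzyme of the anaphase ligase, by 0.94 ± 0.49 and 1.001 ± 0.49. For Ube2c the authors' deposited tables give 3.65 ± 1.18 at 3 days (adjusted p = 0.0991) and 1.27 ± 1.33 at 14 days (adjusted p = 0.913). Nusap1, a spindle protein, stood at 26.0 FPKM in ligated library 2 at 3 days and 25.0 in ligated library 2 at 14 days, and between 0 and 5.46 in the other 14 libraries.

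**Figure D2:**
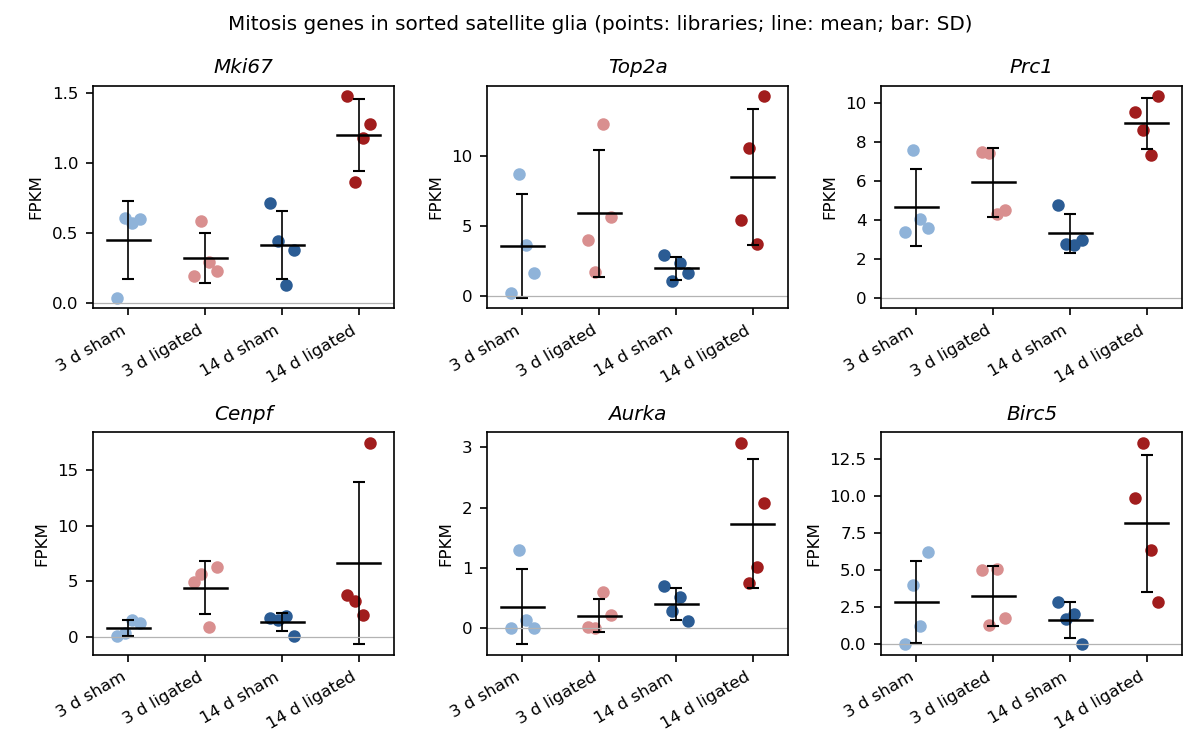
FPKM of 6 mitosis genes in satellite glia 3 and 14 days after sham operation or ligation, with 4 libraries per group as points, the mean as a line and the SD as a bar. At 14 days all ligated libraries of Mki67, Top2a, Prc1, Cenpf and Aurka lie above the sham libraries, and at 3 days the groups overlap for all 6 genes.

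**Figure D3:**
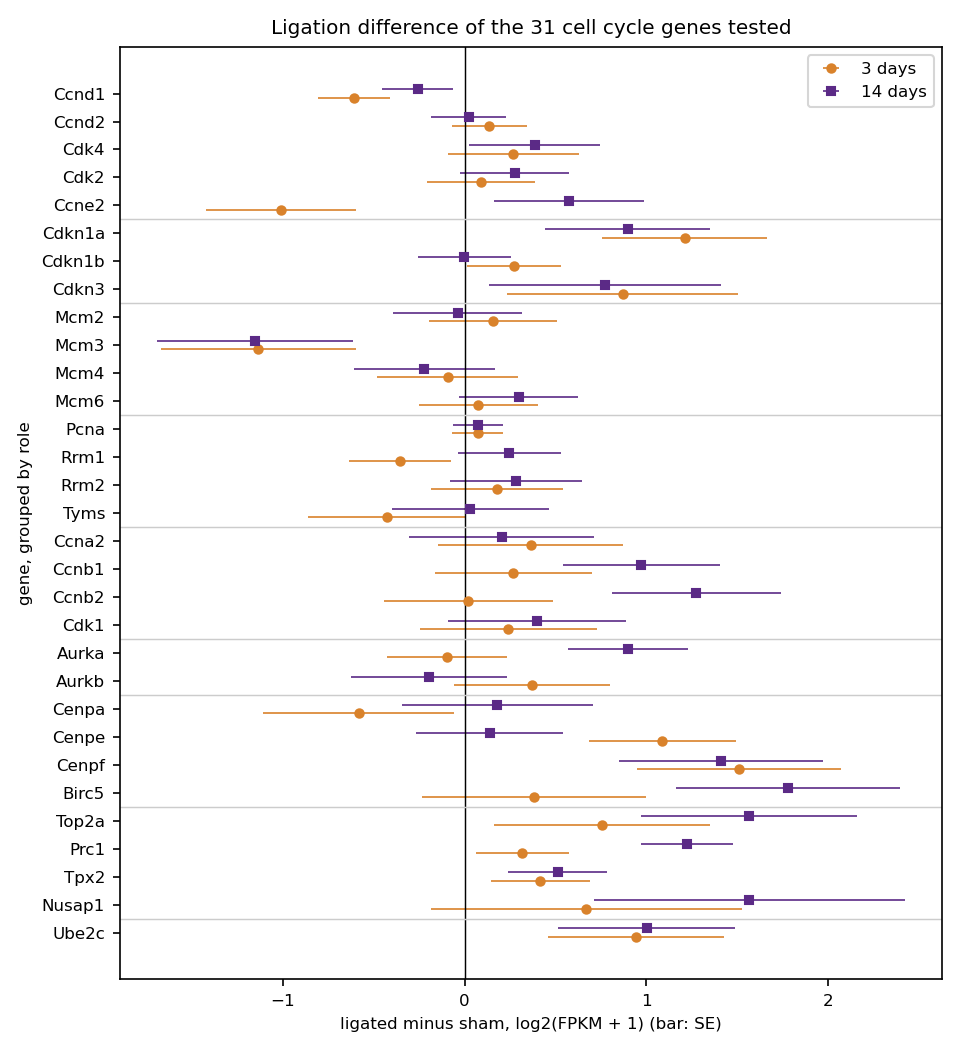
Ligated minus sham difference (log2(FPKM + 1), bar for the SE) of the 31 members tested, grouped by role, at 3 days (circles) and 14 days (squares). Pcna lies near 0 at both days, and Birc5, Top2a, Cenpf, Ccnb2 and Prc1 are among the members above 1 at 14 days.

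The promoters of 4 mitosis genes that stood higher in mean after ligation at 14 days are shown. Such genes share promoter elements through which their transcription follows the cell cycle. Each is the 150 bases before the start site from RefSeq (GRCm38.p6), read 5′ to 3′ on the strand of the gene. None overlaps an exon in GENCODE M21. Capitals mark the CCAAT box (CCAAT, or ATTGG on the other strand), the cell cycle homology region (TTTGAA or TTCAAA) and E2F sites (TTCCCGC or TTGGCGC, on either strand), which may overlap each other.
Mki67, chr7:135716380-135716529, minus strand: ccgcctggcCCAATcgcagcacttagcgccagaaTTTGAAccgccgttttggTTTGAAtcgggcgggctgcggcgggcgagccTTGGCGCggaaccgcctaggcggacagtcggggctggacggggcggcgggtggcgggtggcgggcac
Top2a, chr11:99024190-99024339, minus strand: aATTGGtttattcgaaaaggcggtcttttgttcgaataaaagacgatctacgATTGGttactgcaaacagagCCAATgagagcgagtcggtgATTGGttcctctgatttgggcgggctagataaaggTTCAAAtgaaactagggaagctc
Cenpf, chr1:189688087-189688236, minus strand: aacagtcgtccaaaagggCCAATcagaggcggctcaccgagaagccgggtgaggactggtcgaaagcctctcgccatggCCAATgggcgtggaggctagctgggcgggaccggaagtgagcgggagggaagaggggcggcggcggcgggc
Ccnb2, chr9:70421555-70421704, minus strand: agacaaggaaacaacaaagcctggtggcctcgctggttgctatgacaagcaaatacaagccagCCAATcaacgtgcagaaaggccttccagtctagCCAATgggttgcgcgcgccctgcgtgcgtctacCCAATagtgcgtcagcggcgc

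A promoter entry was found for 33 of the 40 members. Within 250 bases before the start, 27 of these (81.8%) held a CCAAT box, as did 37.5% of the 27025 genes with an entry. The cell cycle homology region stood in 10 members (30.3%), 8 of them among the 18 mitosis genes with an entry, and in 18.3% of all genes. E2F sites stood in 8 members (24.2%) and in 6.45% of all genes. Of the promoters shown, that of Top2a holds 4 CCAAT boxes and 1 homology region, that of Mki67 holds 1 CCAAT box, 2 homology regions and 1 E2F site, and those of Cenpf and Ccnb2 hold CCAAT boxes only in this stretch.

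The difference between the ligation effects at 14 and 3 days was tested as an interaction. No member was called, where 1 gene of 13924 was (0.00718% higher), and 2 of 31 members and 584 of all genes had an unadjusted p under 0.05. The members were Ccne2, with 1.58 ± 0.58, and Prc1, with 0.91 ± 0.36 (limma adjusted p = 0.9995 for both). So no member was shown to respond differently at the 2 days.

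Ligated glia at 14 days were also compared with ligated glia at 3 days. No member was called (0.00718% of genes higher), and 6 members and 869 of all genes had an unadjusted p under 0.05 (limma). In 3 members, Aurka, Ccne2 and Mki67, all 14-day libraries lay above all 3-day libraries, where 1.36% of genes did so (0 members had the reverse order, as 0.653% of genes did). Aurka stood at 0.0198, 0, 0.606 and 0.214 FPKM in ligated glia at 3 days, below its range at 14 days (log2 difference 1.12 ± 0.33; limma adjusted p = 0.538). Between the sham groups, 0 members were called by limma, 0 had an unadjusted p under 0.05 (695 of all genes did) and 0 were separated, where 0% of genes were called and 1.47% were separated upwards and 0.722% downwards.

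Summed over the 21 mitosis genes, a level that a few genes can carry, the 3-day libraries stood at 7.95 to 28.9 FPKM in sham glia and 33.6 to 50.0 in ligated glia. At 14 days the sums were 19.3 to 28.8 and 42.2 to 90.1, and the medians of the 4 groups were 21.5, 36.9, 24.2 and 68.6. Ligated libraries thus stood above sham libraries at both days. Without Top2a, Cenpf and Nusap1, left out as uneven after their values were seen, the 3-day groups overlapped, at 6.97 to 19.7 against 16.6 to 27.2. By Dixon's test, a single library stood apart in Cenpf and Nusap1 but not in Top2a. Prc1, Ccnb1, Ccnb2, Aurka, Cdk1, Ccna2 and Aurkb had such a library and were kept. The 14-day groups did not, at 16.5 to 22.8 against 32.6 to 52.9. These sums describe the libraries and were given no test.

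Markers of other cells moved in part with these sums. The summed level of 10 endothelial markers, led by Egfl7 and Vwf, was 207 to 400 FPKM in sham and 309 to 558 in ligated glia at 3 days, and 187 to 357 and 257 to 441 at 14 days. All 10 were higher after ligation in mean at both days, with 0 called. The 11 macrophage markers, led by Tyrobp and Cd68, summed to 5.08 to 10.3 and 2.47 to 14.0 FPKM at 3 days and to 2.49 to 11.2 and 6.76 to 25.8 at 14 days, with Csf1r, Adgre1, Aif1 and C1qc at 0 in at least 1 library of every group. Neuron markers, led by Stmn2 and Calca, summed to 258 to 542 in sham and 247 to 770 in ligated glia at 14 days. Fibroblast markers, led by Dcn, summed to 118 to 333 and 139 to 331, and Schwann cell markers, led by Pmp22, to 583 to 630 and 545 to 624. The mural marker Tagln was at 0 throughout. The part of other cells in the differences of the mitosis genes was not tested.

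**Figure D4:**
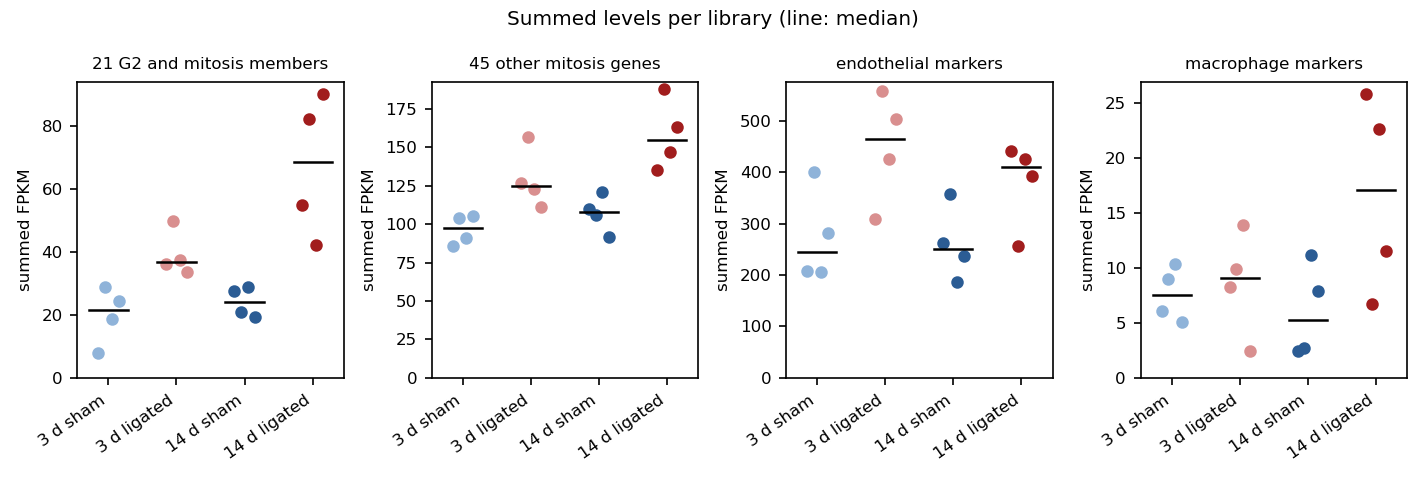
Summed FPKM per library in the 4 surgery groups for the 21 mitosis members, the other mitosis genes (43 of the 45 have a row), 10 endothelial markers and 11 macrophage markers, with the median as a line. The mitosis sums of ligated libraries lie above those of sham libraries at both days, while the endothelial and macrophage sums overlap.

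Further genes of the same processes are given by counts and medians, with no test of a list or between lists. Of 45 other mitosis genes, 28 were tested, 0 were called by limma at either day, and 21 were above 0 at 3 days and 23 at 14 days, with medians of 0.44 and 0.47. The summed level of the 43 of them with a row was 85.6 to 105 FPKM in sham and 111 to 157 in ligated glia at 3 days, and 91.6 to 121 and 135 to 188 at 14 days. The most abundant were Cks1b and Smc2, and Kif4 and Ncapg were at 0 throughout. Of 35 other replication genes, 22 were tested and 0 called, with 10 above 0 at 3 days and 5 at 14 days, and medians of -0.13 and -0.23. Rfc3 and Orc6 were the most abundant, and Fen1 and Rfc4 were at 0 throughout. Of 23 other G1 regulators, led by Btg2 and Cdkn2c, 20 were tested and 0 called, and of 16 p53 targets, led by Bax and Plk2, 11 were tested and 0 called.

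In the authors' deposited table for 3 days, Kif22, a chromosome-bound kinesin, and Ect2, which acts in cytokinesis, were called higher, by 2.86 ± 0.52 and 5.43 ± 1.45 in log2. Gadd45a, a stress gene that restrains the cycle, was called higher there by 2.62 ± 0.49, and the p53 target Sesn1 lower (-0.65 ± 0.14; adjusted p = 0.000814). Kif22 stood at 0.585 to 4.29 FPKM in sham and 11.2 to 22.8 in ligated glia at 3 days, without overlap (log2 difference 2.53 ± 0.47; limma adjusted p = 0.0716). For 14 days, the authors' deposited table calls 5 other mitosis genes higher, Cit, Kif22, Melk, Kif11 and Spc24 (the last named only because the count is 5), and the licensing factor Cdt1 lower. Cit, the citron kinase of cytokinesis, had a log2 fold change of 1.23 ± 0.29 there (adjusted p = 0.00479), and Kif22 1.83 ± 0.45 (adjusted p = 0.00891).

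In naive mice, satellite glia were compared with the whole ganglion that holds them. Of 22 members tested, 7 were higher in sorted satellite glia and 4 lower, where 16.9% and 27.9% of all genes tested were called. The higher members were Ccnd1, Cdk4, Cdk2, Cdkn1b, Rrm2, Nusap1 and Prc1, and the lower ones Ccne1, Cdkn1a, Cdkn3 and Birc5. Ccnd1 stood at 21.4, 26.0, 19.8 and 24.6 FPKM in satellite glia and at 8.58, 5.77, 8.08 and 15.01 in ganglia, without overlap (log2 difference 1.27 ± 0.25; limma adjusted p = 0.00326). Cdkn1b averaged 34.6 ± 5.99 against 22.8 ± 3.01 FPKM (0.57 ± 0.16; limma adjusted p = 0.0183). The limma adjusted p of Cdkn1b was 0.0567 without ganglion library 1 and 0.0521 without library 2. That of Rrm2 was 0.0622 to 0.0859 without glia library 1 or 2 or ganglion library 1, 2 or 3, and that of Prc1 was 0.0585 to 0.0843 without glia library 1 or 4 or any 1 ganglion library.

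Cdkn1a was lower in naive satellite glia, at 6.28, 20.4, 14.1 and 26.0 FPKM against 38.2, 36.8, 42.2 and 49.3 in ganglia, without overlap (-1.42 ± 0.37; limma adjusted p = 0.0128). Birc5 stood at 0.0121, 0.1, 0 and 1.69 against 3.89, 4.69, 4.98 and 4.30 (-2.05 ± 0.32; limma adjusted p = 0.000942). Mki67 averaged 0.266 ± 0.279 in satellite glia and 0.34 ± 0.0746 in ganglia (SD, n = 4), and Top2a 2.32 ± 1.58 and 1.98 ± 1.55, with overlap in both. Over the 38 members above 0, 6 were separated upwards and 7 downwards, where 8.19% and 19.3% of genes were.

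In the same libraries the macrophage markers summed to 3.31 to 5.82 FPKM in sorted glia and 57.6 to 69.1 in ganglia, and the neutrophil markers to 0 to 0.143 and 459 to 558. The neuron markers summed to 92.5 to 230 and 2689 to 4988. Quantile scaling moved the median of all genes from -0.12 to 0.16 and the called genes from 2184 higher and 3605 lower to 3701 higher and 2691 lower. It gave 12 members higher and 4 lower by limma.

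In neurons, which do not divide, 24 members have a row, and Mki67, Top2a, Cenpf, Ccnb1 and Ccnd1 are among those that do not. Over both sexes, 0 of the 24 were called between ligated and sham neurons, where 0.28% of genes were called higher, and 3 members and 435 of 12145 genes had an unadjusted p under 0.05 (limma). Prc1 was the member whose groups did not overlap, where 0.699% of genes were separated upwards and 0.0986% downwards. It stood at 1.51, 2.81 and 0.72 FPKM in male and 1.65, 2.61 and 2.57 in female sham neurons, against 5.35, 3.71 and 5.38 in male and 3.55, 6.595 and 4.39 in female ligated neurons (0.998 ± 0.38; limma adjusted p = 0.999). The authors' deposited table for neurons calls Prc1 higher by 1.13 ± 0.24 (adjusted p = 0.000504) and Cdkn1a by 0.89 ± 0.14 (adjusted p listed as 0), where 1.38% of genes were called higher. It gives Mki67 -0.20 ± 0.24 and Top2a 0.16 ± 0.22. Its standard errors are small even at few counts (Cdk2, 0.10 at a mean normalised count of 0.5). Those for glia are not (Plk1 at 3 days, 3.40 at 0.859). Fold changes of neurons and glia may therefore not be on a like scale.

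Cdkn1a averaged 74.9 ± 31.7 FPKM in male and 64.9 ± 5.06 in female sham neurons, and 103 ± 11.5 and 141 ± 35.4 in ligated neurons (SD, n = 3). Sham male neurons held a library at 111, inside the ligated range (log2 difference 0.80 ± 0.18; limma adjusted p = 0.0807). Without that library the limma adjusted p was 0.00757, and without the second ligated female library 0.0408. The ligation effect differed by 0.55 ± 0.36 between females and males, and 0 members and 0% of genes were called for that difference (limma), with 0 members and 130 genes at an unadjusted p under 0.05.

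Between the ligated and the opposite side, Cdkn1a rose. It stood at 166, 165.5, 149 and 113 FPKM on the ligated side and at 85.0, 71.1, 63.6 and 55.7 on the opposite side, without overlap (log2 difference 1.10 ± 0.22; limma adjusted p = 0.02). It was the only member of 24 called, where 0.659% of genes were called higher and 0.00823% lower. Mcm6, Rrm1 and Cdkn3 were also separated upwards and Ccne1 and Cdkn1b downwards, where 2.69% and 1.78% of genes were. Prc1 stood at 14.95, 5.19, 4.69 and 2.86 against 1.96, 0, 1.196 and 4.68, with overlap (1.47 ± 0.47; limma adjusted p = 0.227). The adjusted p of Cdkn1a was 0.0632 with only these 8 libraries in the fit and between 0.0618 and 0.0826 without ligated library 1 or 2 or opposite library 3 or 4.

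Of the other genes, the G1 regulator Gadd45g rose in ligated neurons over both sexes (1.34 ± 0.26; limma adjusted p = 0.027). Against the opposite side, Gadd45g, Gadd45a and Kif22 rose, by 1.90, 1.89 and 2.03 in log2 (limma adjusted p = 0.00384, 0.00438 and 0.0261).

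**Figure D5:**
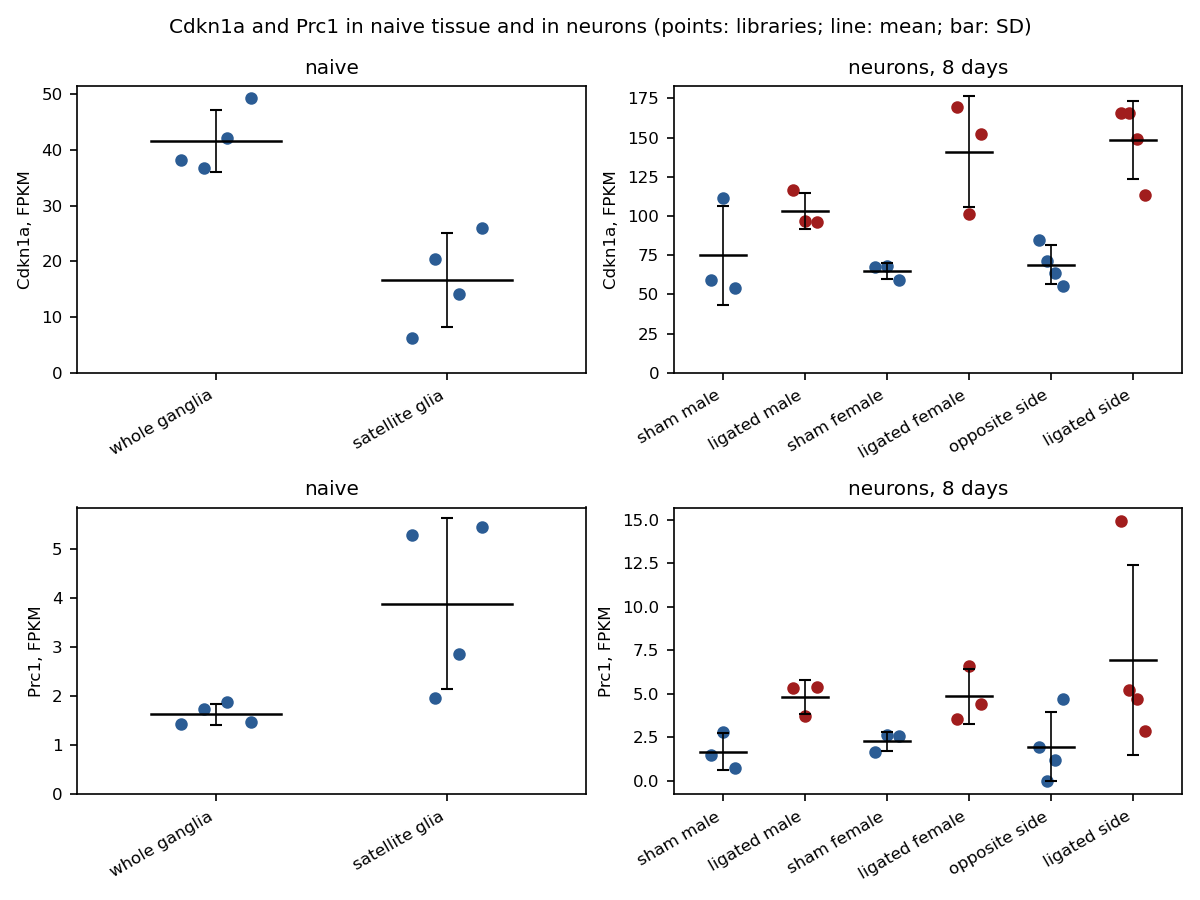
FPKM of Cdkn1a and Prc1 in naive whole ganglia and sorted satellite glia (left, 4 libraries each) and in neurons at 8 days (right, 3 or 4 libraries per group), with libraries as points, the mean as a line and the SD as a bar. The levels of the left and right panels come from tables scaled separately. Cdkn1a lies lower in satellite glia than in ganglia and higher on the ligated than on the opposite side.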

How the data were processed

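Expression was measured by RNA sequencing in 44 libraries of 12 groups. The FPKM values were deposited by the authors in 3 tables, which were scaled separately. The naive table, also deposited as FPKM, writes its values with decimal commas (its unit was entered as other for that reason), which were read as decimal points. The authors' deposited comparison tables give a signal (the mean of counts divided by size factors), a fold change on the log2 scale and its standard error, and a p-value with its adjusted form. Their sign was turned to ligated over sham, since they run opposite to the FPKM values of called genes. Another such table names no comparison and was not used. The submitters' processing notes name STAR, SAMtools, Cufflinks, DESeq2 and mm10, and versions, strand use and gene filters are not given in the sources used here. Lines that share an identifier were summed.

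Groups were compared with limma 3.58.1 (R 4.3.3), with a trend, on log2(FPKM + 1), in 1 fit per table. A gene was tested if it had at least 1 FPKM in 4 libraries (3 for neurons), p-values were two-sided and adjusted over all tested genes after Benjamini and Hochberg, and calls were made at 0.05, in 9 comparisons. Because of the added 1, differences of low genes come out too small. Tables were read with Python 3.11.15 and pandas 2.3.3 and plotted with Matplotlib 3.10.9. The procedure was tested on simulated data for the 14-day comparison (13924 genes). It recovered 44% of genes changed by 1 in log2 and 85% of those changed by 2, with 9 false calls. The changed genes were drawn only from those with a mean log2(FPKM + 1) above 3. Recovery was therefore not measured for lower genes, such as the mitosis genes. The files hold no counts for single libraries, so depth and its precision are unknown. Alternatives were another pseudocount, no filter, quantile scaling, array weights, fewer groups in the fit, a replicate block and leaving out each library.

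Members and gene lists were chosen with earlier results of these data known. All members are named. Of each other list, the called genes (at most 4) or the 2 most abundant are named, with markers at 0. Other markers at 0 in single libraries were named after their values were seen.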

Additional observations from a re-analysis of the deposited data

Results flagged for a closer look

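In 22 of 216 groups of 4 libraries, 1 library stood far from the other 3 (Dixon's test), 18 of them high. Chance gives about 1 in 20 groups only if values are normally distributed. Many FPKM values here were low, and a group with 3 equal values is flagged by any differing value. The rate of 1 in 20 is therefore no baseline for the 22 groups or for the share that were high. All values are FPKM.

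In ligated glia at 14 days, Cdk4 stood at 112.0 in library 2 against 25.28 to 31.38 in the others, Ccnd2 at 5.852 in library 2 against 9.805 to 9.841, and Ccne2 at 1.197 in library 2 against 1.966 to 2.019. Cenpf stood at 17.43 in library 4 against 1.96 to 3.775. In sham glia at 14 days, Prc1 stood at 4.774 in library 1 against 2.722 to 2.962, Ccnb2 at 2.347 in library 2 against 0 to 0.2682, and Cdk4 at 23.41 in library 2 against 32.47 to 33.12.

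In ligated glia at 3 days, Nusap1 stood at 26.04 in library 2 against 0 to 1.278, Cdk1 at 0.05558 in library 2 against 2.909 to 3.134, and Ccnb1 at 3.884 in library 1 against 0.1647 to 0.7734. In sham glia at 3 days, Prc1 stood at 7.602 in library 2 against 3.38 to 4.051, and Aurka at 1.289 in library 2 against 0 to 0.1339. Ccna2 at 1.607 and Aurkb at 0.6443, both in library 3, stood against 0 in the others.

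In naive tissue, Birc5 stood at 1.687 in glia library 4 against 0 to 0.1001, Ccnd2 at 5.448 in ganglion library 4 against 4.023 to 4.141, and Pcna at 24.58 in ganglion library 2 against 19.98 to 20.35. In neurons of the opposite side, Cdkn1b stood at 20.94 in library 2 against 12.52 to 13.53. Ccne2 at 2.878, Ccnb2 at 0.1575 and Cdk1 at 0.04017 each stood against 0 in the other 3 libraries. On the ligated side Ccnf stood at 1.273 in library 1 against 0 to 0.05786.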

How the results depend on the processing

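No single member that was called in the comparison as reported or under an alternative changed sign under the alternatives run. Quantile scaling did turn the balance of all called genes in naive tissue, from 37.7% to 57.9% higher. Of the single members, 3732 values stayed on their side of the threshold, 15 passed it and 23 lost it. At 3 days, 9 genes were called by limma, 14 with a pseudocount of 0.1, 1 with no filter, 5 with array weights, 4 with only the groups compared, and 1 to 6 without single libraries (1 without sham library 2 or 3 or ligated library 4). At 14 days, 1 gene was called, 10 with array weights, 2 with only the groups compared, and 1 to 2 without single libraries (2 without ligated library 4). The difference between days gave 1 and, without single libraries, 1 to 4, as did ligated glia at 14 against 3 days (4 without ligated 14-day library 3 in both). Sham glia between days gave 0, 1 with only the groups compared, and 0 to 1 without single libraries (1 without 3-day sham library 1). Neurons ligated against sham gave 34 genes and 21 to 39 without single libraries (21 without the third ligated male library), and 0 members, 1 with array weights and 0 to 1 without single libraries. The difference between the sexes gave 0 and, without single libraries, 0 to 1 (1 without the second ligated female library). Ligated against opposite side gave 81 genes, 30 with only the groups compared and 62 to 119 without single libraries, and 1 member, 0 with only the groups compared and 0 to 1 without single libraries. Naive tissue gave 5789 genes and 4594 to 5909, and 11 members and 8 to 12. The cause of these changes was not tested. The median sum of the mitosis genes in ligated glia was 22.2 FPKM at 3 days and 43.95 at 14 days without Top2a, Cenpf and Nusap1, an alternative chosen after seeing the data.

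With the replicate number as a block, 1 gene was called at 3 days, 0 at 14 days and 0 for the difference between days, and in naive tissue Prc1 (adjusted p = 0.0649), Rrm2 (0.0681) and Cdkn1b (0.0517) were no longer called by limma. Libraries of the same number shared only a number: their deviations correlated at -0.076 to 0.003 at 3 days, -0.038 to 0.069 at 14 days and 0.003 to 0.186 in naive tissue, and 0, 1 and 2 of 4 correlated best with their own number. The block was not run for ligated glia at 14 against 3 days or for sham glia at 14 against 3 days. No paired analysis was possible for neurons because their columns carry no replicate number. The depth of single libraries is unknown, so a low value in a library cannot be told from too few reads there. Averaged over libraries, the authors' deposited tables give Mki67 a mean normalised count of 109 at 3 days and 225 at 14 days.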
